A study of Mus musculus with 21 samples.

Results

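The choroid plexus epithelium genes were 30 genes of the hippocampal count table, listed as genes of this epithelium whose level differed strongly from one dissection to the next. All 30 were among the 55487 genes listed, and all 30 were among the 18146 genes kept for testing. Since they were chosen for varying between mice and for varying together, their range and their co-variation are given here as description, and tests are given only for the MS group against the SR group. Male wild type C57BL/6 mice were raised either with maternal separation (MS, n = 9) or under standard rearing (SR, n = 12), and the hippocampi were dissected at an age of 10 weeks for bulk poly-A RNAseq, with 1 library per mouse. In the MS group whole nests were taken from the dam for 4 hr per day between postnatal day (PND) 10 and PND 17, and most nesting material was removed from the home cage during these days. The SR group had no separation. The animal numbers run in groups of 3, called sets here, and a mouse is named by its set (A, B or C in the MS group, and D, E, F or G in the SR group) and its place in it. The labels do not say whether such a set was a litter, so the p values measure the spread between these mice.

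The choroid plexus is a vascular fold that hangs into the brain ventricles, and the one of the lateral ventricle lies directly along the hippocampus. Its cuboidal epithelium secretes cerebrospinal fluid by moving ions, bicarbonate and water from blood to ventricle, seals the blood to cerebrospinal fluid barrier with tight junctions, and releases carrier proteins and growth factors into the fluid. Some of its genes are also expressed elsewhere in the brain, such as Enpp2 in oligodendrocytes and Kl in neurons.

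The libraries held 17276810 to 30449055 counts. Levels are given as CPM, the count of a gene scaled to a common library total. MS mouse A2 stood apart on the first principal component (27.1, against -12.2 to 11.9 for the other 20). Dsp, a gene of dentate granule cells, was at 0.692 CPM in A2 and at 54.0 to 138 CPM elsewhere, while the striatal gene Penk was at 418 CPM and at 13.8 to 135 CPM elsewhere. The study's methods leave out 1 outlier without naming it, and A2 was taken to be that library and left out, so that 8 MS and 12 SR mice remained, and A2 enters a value only where it is named. The paper's results give 9 MS and 12 SR mice, as many as the libraries here. Its outlier may thus not be among them, and the 8 MS mice may differ from those of the paper. In A2 Ttr stood at 5.27 CPM, below every other mouse, and 9 of the 30 choroid plexus genes were lower than in any other mouse. The summed level of 5 genes listed for hippocampal neurons lay between 6442 and 9768 CPM in the 20 mice. This sum does not show which region was dissected, and its value in A2 is not given here. None of the 7 defining markers of choroid plexus epithelium (Ttr, Kl, Folr1, Clic6, Kcnj13, Otx2 and Aqp1) was at 0 in any mouse.

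Choroid plexus genes differed more between mice than nearly all other genes, and Ttr differed most. Ttr encodes transthyretin, the carrier of thyroxine and retinol in cerebrospinal fluid, and it ranked first of the 18146 genes by the standard deviation of its log2 CPM. Its level ran from 10.4 CPM in SR mouse E1 to 4105 CPM in SR mouse D3, a ratio of 393. Between these ends lay a gap, with no mouse between 49.4 CPM in D1 and 349 CPM in E3. Below the gap were 5 mice, namely E1, F1, C2, G1 and D1, and they came from 5 different sets. The other 15 mice lay above it. In set F, for example, F1 had 17.8 CPM while F2 had 1734 and F3 had 1800. The mice of a set thus did not share a level, except in set B, where the 3 MS mice had 3150, 3276 and 3388 CPM. In set A the mice A1 and A3 had 2823 and 3765 CPM, but A2, which was left out, had 5.27. Of the variation in Ttr within the rearing groups, 20.1% lay between sets. This is a raw share of the sum of squares. It lies above 0 for small sets even where mice of a set are no more alike than others, and it was not tested.

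**Figure D1:**
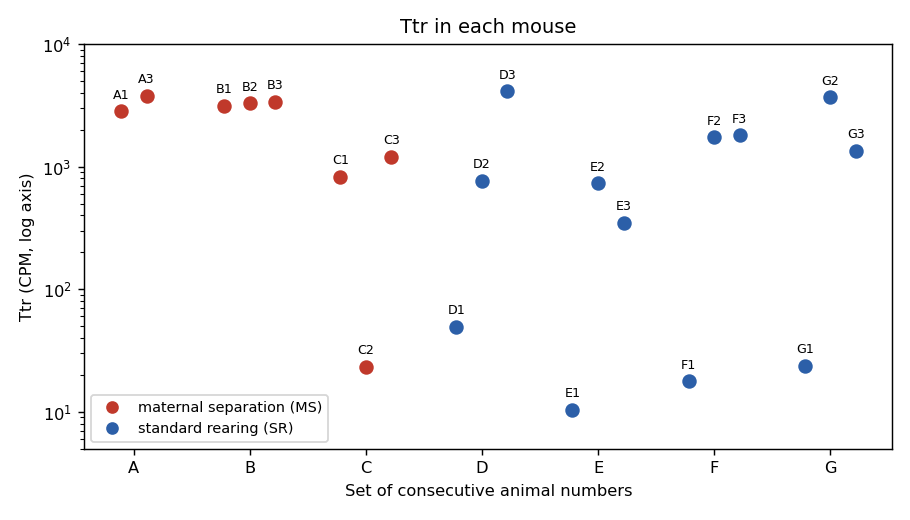
Ttr in each of 20 mice, in CPM on a log axis, by set of consecutive animal numbers, with MS mice in red and SR mice in blue. The 5 mice at or under 49.4 CPM come from sets C, D, E, F and G, and the mice of sets A and B lie at 2823 CPM and above, with A2 left out.

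Summed over the 30 genes, the level ran from 225 CPM in C2 to 7862 CPM in D3, which is 0.0225% and 0.786% of the library. In the 15 mice above the gap, Ttr made up between 41.1% and 52.6% of this sum, and in the 5 below it between 4.16% and 14.8%. In bulk tissue, fewer cells of a type and less RNA per cell cannot be told apart. All 30 genes were among the 500 genes with the largest standard deviation of log2 CPM, the property for which they had been chosen. Per kilobase of exon, the scale on which genes can be compared with each other, Ttr had a median level of 1074 CPM, Enpp2 174 and Igfbp2 22.1, while Igf2 had 0.317 and Cdh3 0.229.

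The secreted proteins other than Ttr covered a wide span of levels. Enpp2 encodes autotaxin, which makes the signalling lipid lysophosphatidic acid, and its lowest, median and highest levels were 116, 1869.7 and 2179 CPM in the MS group. In the SR group they were 144, 610.1 and 2485 CPM. Enpp2 thus kept over 100 CPM even in the mice with hardly any Ttr, and its highest level was 21.5 times its lowest. F5, coagulation factor V, reached from 1.47 to 72.7 CPM in the MS group with a median of 55.9, and from 0.424 to 79.1 CPM in the SR group with a median of 14.9. 1500015O10Rik, also named Ecrg4 and encoding a secreted peptide precursor, had 0.647, 29.5 and 39.3 CPM in the MS group and 0.565, 7.42 and 37.9 CPM in the SR group. Its highest level was 69.6 times its lowest, against 186 times for F5. Sostdc1, an extracellular antagonist of BMP and Wnt signals, lay between 1.94 and 29.4 CPM in the MS group and between 1.75 and 43.0 CPM in the SR group. Wfikkn2 encodes a secreted protein with protease inhibitor domains that binds growth factors of the myostatin family, and lay between 0.388 and 10.4 CPM in the MS group and between 0.564 and 12.0 CPM in the SR group. For each of these genes the ranges of the groups overlapped.

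The growth factor genes had narrower ranges. Igfbp2, a carrier of insulin-like growth factors, had 19.2, 81.8 and 100.7 CPM in the MS group as lowest, median and highest level, and 12.4, 31.8 and 101.4 CPM in the SR group. Igf2, insulin-like growth factor II, had 0.819, 3.78 and 5.35 CPM in the MS group and 0.470, 1.61 and 4.33 CPM in the SR group. The highest level was 8.17 times the lowest for Igfbp2 and 11.4 times for Igf2, far below the ratio for Ttr. Igf2 is imprinted and is also made by meningeal cells and vessels, and Igfbp2 by astrocytes and other cells.

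Slc4a5, a sodium bicarbonate cotransporter of the apical membrane, had 0.259, 32.9 and 38.6 CPM in the MS group and 0.0849, 8.39 and 45.7 CPM in the SR group, and its ratio of highest to lowest was 538. That ratio rests on 2 counts in E1, and it is uncertain for this reason. Kcne2, a potassium channel subunit, lay between 0.216 and 23.1 CPM in the MS group and between 0.141 and 24.2 CPM in the SR group. Kcnj13, an inward rectifier potassium channel, lay between 0.216 and 18.4 CPM in the MS group and between 0.141 and 19.8 CPM in the SR group. Aqp1, the apical water channel through which much of the fluid passes, had 0.690, 19.7 and 27.6 CPM in the MS group and 0.202, 4.86 and 29.0 CPM in the SR group. All 4 genes lay below 1 CPM in the 5 mice with little Ttr, where Kcnj13 and Kcne2 were read from as few as 3 counts.

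Clic6, of the chloride intracellular channel family, had 4.40, 86.6 and 113 CPM in the MS group and 2.67, 21.2 and 98.5 CPM in the SR group. Folr1, the folate receptor that brings folate into cerebrospinal fluid, had 0.690, 20.9 and 32.6 CPM in the MS group and 0.509, 5.93 and 32.1 CPM in the SR group. Both genes followed the mean of the other members closely, with Pearson correlations of log2 CPM over the 20 mice of 0.991 and 0.995. Trpv4, a cation channel that opens with cell swelling, lay between 1.72 and 28.1 CPM in the MS group and between 1.82 and 32.8 CPM in the SR group. Steap1, a metalloreductase of the membrane, had no count in C2, which allows up to 3 counts, and reached 6.93 CPM in the MS group and 9.40 CPM in the SR group. Slc13a4, a sodium sulfate cotransporter, departed from the other transporters, since D1 and E1 had 14.5 and 10.4 CPM although both lay below the gap in Ttr. C2, F1 and G1 had 2.54, 2.22 and 3.95 CPM of Slc13a4. On the genome Kcne2 (chr16:92292389-92298129) and Clic6 (chr16:92485736-92541243) lie close to each other on build GRCm38.

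Among the membrane proteins and enzymes, Kl encodes klotho, the co-receptor for FGF23. Kl had 22.9, 158 and 207 CPM in the MS group and 13.8, 46.6 and 207 CPM in the SR group. Ace, the angiotensin-converting enzyme, had 10.3, 99.9 and 126 CPM in the MS group and 10.1, 34.5 and 126 CPM in the SR group. Both kept a level above 10 CPM in all 20 mice. Prlr, the prolactin receptor, lay between 3.15 and 50.9 CPM in the MS group and between 2.59 and 46.2 CPM in the SR group. Mfrp, a membrane protein with a frizzled-related domain, lay between 0.690 and 49.7 CPM in the MS group and between 0.255 and 52.1 CPM in the SR group. Mfrp lost far more of its level in the low mice than Prlr, with a ratio of highest to lowest of 205 against 19.7. Tmem72, a transmembrane protein, had a ratio of 79.1.

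Among the junction and matrix genes, Cldn2, a claudin that forms cation and water pores in leaky tight junctions, had 0.259, 19.6 and 28.7 CPM in the MS group and 0.255, 5.52 and 28.7 CPM in the SR group. Col8a1 and Col8a2, the chains of the short-chain collagen VIII, had medians of 20.3 and 18.9 CPM in the MS group and of 5.76 and 6.12 CPM in the SR group. Cdh3, encoding P-cadherin, was the lowest of the 30, and was read from a single count in F1 and from 105 counts in G2. Sulf1, a sulfatase that trims heparan sulfate, lay between 3.71 and 74.2 CPM over the 20 mice. Calml4, a calmodulin-like protein, lay between 0.552 and 10.7 CPM.

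The transcription factor genes were Otx2 and Msx1. Otx2 is a homeodomain factor that choroid plexus epithelium needs for its development and upkeep, and had 0.604, 16.7 and 24.4 CPM in the MS group and 0.382, 5.01 and 23.2 CPM in the SR group. Msx1, another homeodomain factor, had 6.47, 23.5 and 29.6 CPM in the MS group and 4.84, 9.43 and 31.9 CPM in the SR group. The highest level of Otx2 was 64.0 times its lowest, whereas Msx1 had the smallest ratio of all 30 genes, 6.59.

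**Figure D2:**
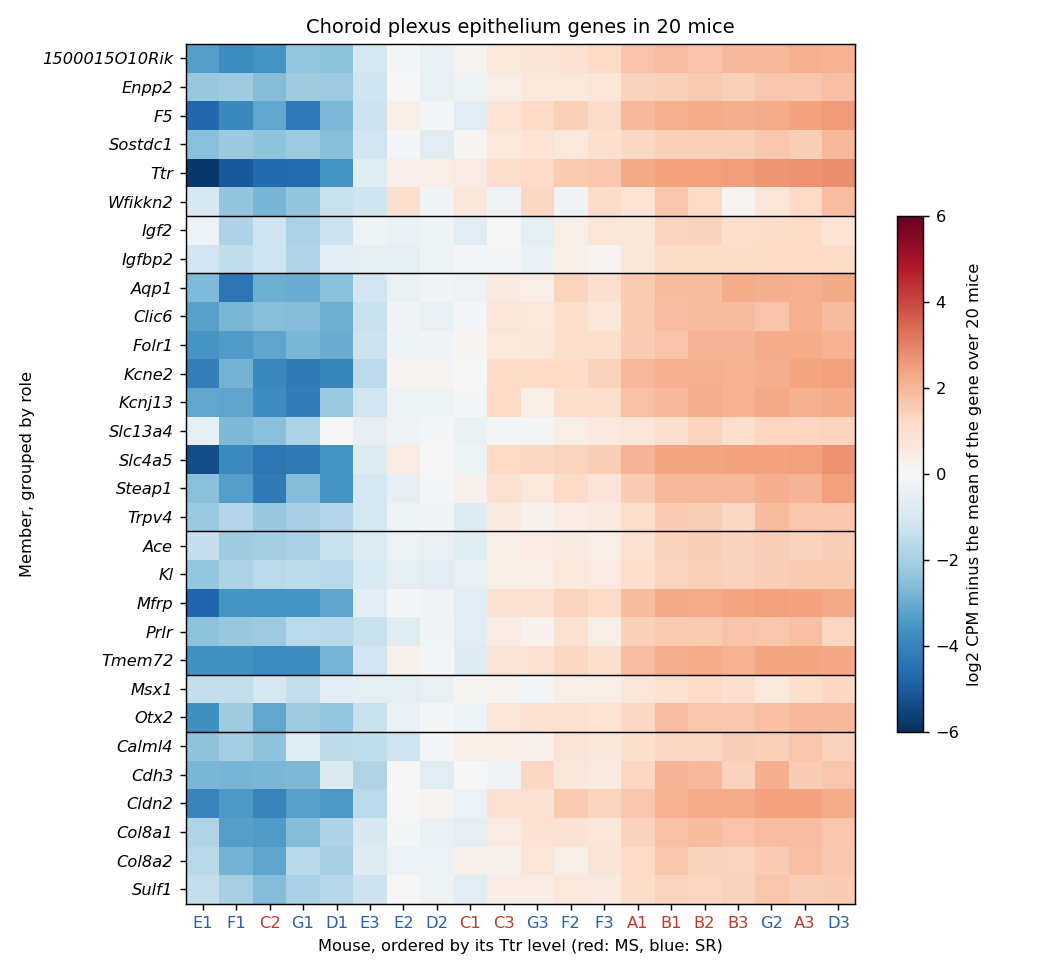
Log2 CPM of the 30 choroid plexus genes in 20 mice, each gene relative to its mean, with rows grouped by role and mice ordered by their Ttr level (MS in red, SR in blue). The colours change together from left to right, and the palest rows, such as Msx1 and Igfbp2, belong to the genes with the smallest ratios, 6.59 and 8.17.

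Since 2 of the genes that varied together encode homeodomain factors, the 250 bases before each start site in RefSeq (GRCm38.p6) were searched on both strands for the core words these factors bind. A promoter entry was found for 23 of the 30 genes. The OTX2 word is TAATCC, and it was present in 3 of the 23 (Mfrp, Ace and Otx2), or 13.0%, and in 7.21% of the 27025 genes in the table. The MSX1 word is TAATTG, and it was present in 3 of the 23 as well (Tmem72, Kcnj13 and Otx2), and in 8.30% of all genes. A match of letters is a description and does not show a binding site. The sequences below show 5 of these promoters on the strand of the gene, each as 80 bases with the word in capitals, for Mfrp (chr9:44101599-44101678, plus strand), Ace (chr11:105967868-105967947, plus strand), Otx2 itself (chr14:48665278-48665357, minus strand), Kcnj13 (chr1:87394785-87394864, minus strand) and Tmem72 (chr6:116716906-116716985, minus strand). In Mfrp and Otx2 the OTX2 word stands on the other strand, so that it reads GGATTA. The first base of the word lies 134 bases before the start site in Mfrp, 27 in Ace, 211 in Otx2, 98 in Kcnj13 and 190 in Tmem72.
Mfrp: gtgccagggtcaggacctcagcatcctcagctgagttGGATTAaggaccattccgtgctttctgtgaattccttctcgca
Ace: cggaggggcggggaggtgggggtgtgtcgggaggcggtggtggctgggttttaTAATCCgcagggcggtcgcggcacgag
Otx2: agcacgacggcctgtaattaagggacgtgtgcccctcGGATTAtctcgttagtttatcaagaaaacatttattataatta
Kcnj13: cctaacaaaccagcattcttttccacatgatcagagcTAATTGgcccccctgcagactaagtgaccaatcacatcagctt
Tmem72: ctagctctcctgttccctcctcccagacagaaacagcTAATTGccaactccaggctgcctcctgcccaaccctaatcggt

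The 30 genes varied together over the mice. Over the 20 mice the 435 pairs of genes had a median Pearson correlation of log2 CPM of 0.961, and 370 pairs reached 0.9. The lowest pair was Wfikkn2 with Igf2 at 0.796, and the highest was Slc4a5 with Mfrp at 0.996. These correlations are a description, as the genes were picked for varying together, and the values of a mouse come from the same library and depth. The correlation of the mean of the 30 genes with the log2 total count was -0.233. The median over pairs was 0.983 in the 8 MS mice and 0.952 in the 12 SR mice. Because the gap in Ttr separated 5 mice from the rest, the 15 mice above it were also taken alone, and the median was 0.956 with a lowest pair of 0.433 (Wfikkn2 with Igf2). With A2 kept, the median over the 21 mice was 0.944.

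Each gene was also set against the mean of the other members. Over the 20 mice this correlation ran from 0.886 for Wfikkn2 to 0.996 for Tmem72, with a median of 0.983, and it was at least 0.9 for 27 of the 30 genes. The 3 below were Wfikkn2, Igf2 and Slc13a4, with 0.886, 0.898 and 0.897. Without the 2 mice farthest from the median, the values ran from 0.833 to 0.994. For Wfikkn2 the relation was weaker among the 15 mice above the gap, at 0.633, while Ttr itself stood at 0.996 there. Of the 18116 genes outside the list, 117 had a correlation of at least 0.9 with the mean of the 30, and the median was -0.04.

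The genes differed in where a line drawn through their levels met the axis at no Ttr. In straight-line fits of CPM on the CPM of Ttr over the 20 mice, the line for Aqp1 met the axis at 0.0300 ± 0.495 CPM (SE), and those for Slc4a5 and F5 at 0.137 ± 0.542 and 0.314 ± 1.06 CPM. For these genes the line passed through 0 within its error. For Enpp2 it met the axis at 162 ± 29.3 CPM, or 16.2% of the gene's median level, and for Kl at 18.7 ± 2.7 CPM, or 20.5%. The largest shares were found for Igf2 with 46.1%, Slc13a4 with 44.1%, Igfbp2 with 43.4%, Msx1 with 43.1% and Wfikkn2 with 39.1%. These are shares of a fitted line, and in the 5 mice below the gap Wfikkn2 lay between 0.388 and 1.61 CPM, under the 1.74 ± 0.764 CPM at which its line met the axis. The residuals of Slc13a4 and Wfikkn2, after a line fitted to the mean of the other members on the log2 scale, moved with the mean of 12 fibroblast and leptomeningeal genes (r = 0.631 and 0.616, n = 20), and those of Clic6 moved the opposite way (r = -0.608), and these were the strongest such correlations of the 30 genes.

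**Figure D3:**
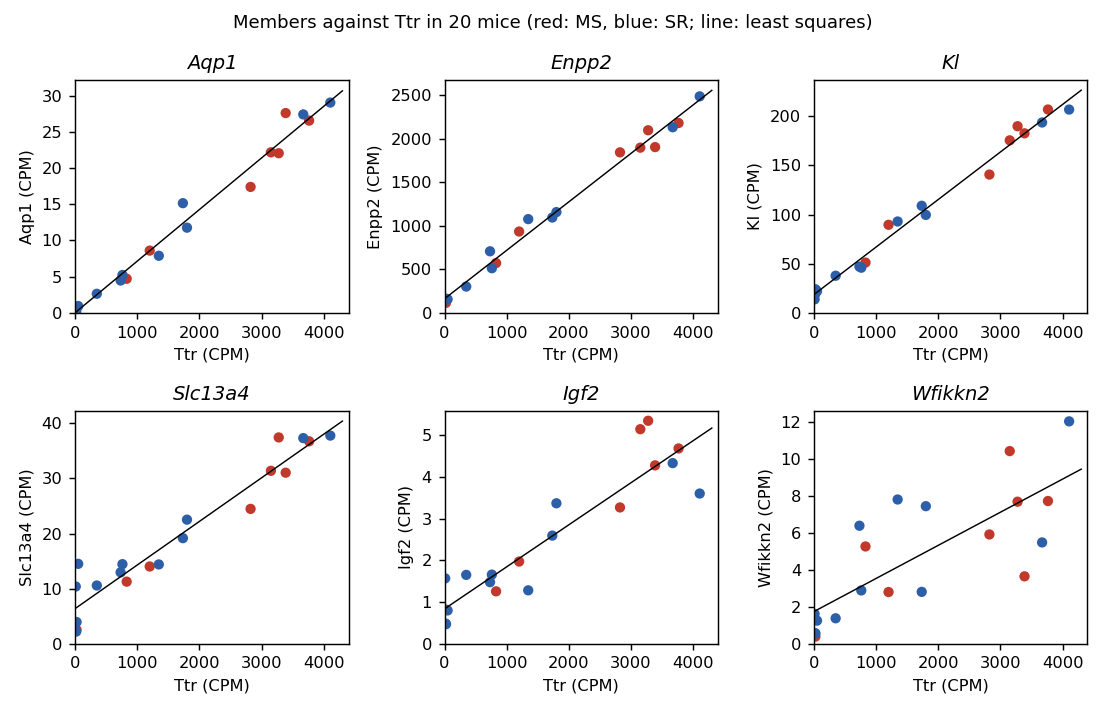
CPM of 6 choroid plexus genes against the CPM of Ttr in 20 mice, with MS mice in red, SR mice in blue and a least-squares line. The line for Aqp1 starts at 0.0300 CPM, whereas those for Slc13a4, Igf2 and Wfikkn2 start at 44.1%, 46.1% and 39.1% of the gene's median, and Wfikkn2 scatters most about its line.

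The 10 genes outside the list whose level was most like the mean of the 30 were Rbm47, Wdr86, Oca2, Slc2a12, Gm44250, Col9a3, Drc7, Rdh5, Abca4 and Mdfic, with correlations over the 20 mice from 0.991 for Rbm47 to 0.973 for Mdfic. Rbm47 ran from 0.552 to 10.7 CPM. A further list of 49 genes with known expression in choroid plexus held 48 that were tested. Their median correlation with the mean of the 30 was 0.927, and 32 of them reached 0.9, where 0.646% of all genes outside the 30 did. This further list was chosen with earlier results of these data known, so these values are a description. It holds Rbm47, Wdr86, Oca2, Col9a3, Rdh5 and Abca4 of the 10 genes named above, which are thus counted in both. The lowest of the 48 was Atp1b1, a sodium pump subunit that neurons also make in large amounts, with 0.0372. It is named after its values were seen.

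Lists of other cell types and regions at the borders of the hippocampus varied less with the choroid plexus genes. Of 12 genes of ependyma, the ciliated lining of the ventricle, 11 were tested, with a median correlation of 0.657 and the highest for Cfap126, Foxj1 and Pifo (0.877, 0.854 and 0.848). Fenestrated endothelium, the type of capillary found in the choroid plexus stroma, was marked by Plvap with 0.737 and Esm1 with 0.821, while Plpp3 had -0.538. The 9 endothelial genes had a median of -0.0718, with Slco1c1, a thyroxine transporter found in both brain capillaries and choroid plexus, as the highest at 0.884. The medians were 0.268 for 12 genes of leptomeninges and fibroblasts, -0.138 for mural cells, 0.0936 for thalamus and habenula, 0.116 for striatum and -0.128 for neocortical layers. Within the hippocampus they were -0.211 for dentate granule cells, -0.119 for CA pyramidal neurons and -0.381 for hippocampal neurons as a whole.

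**Figure D4:**
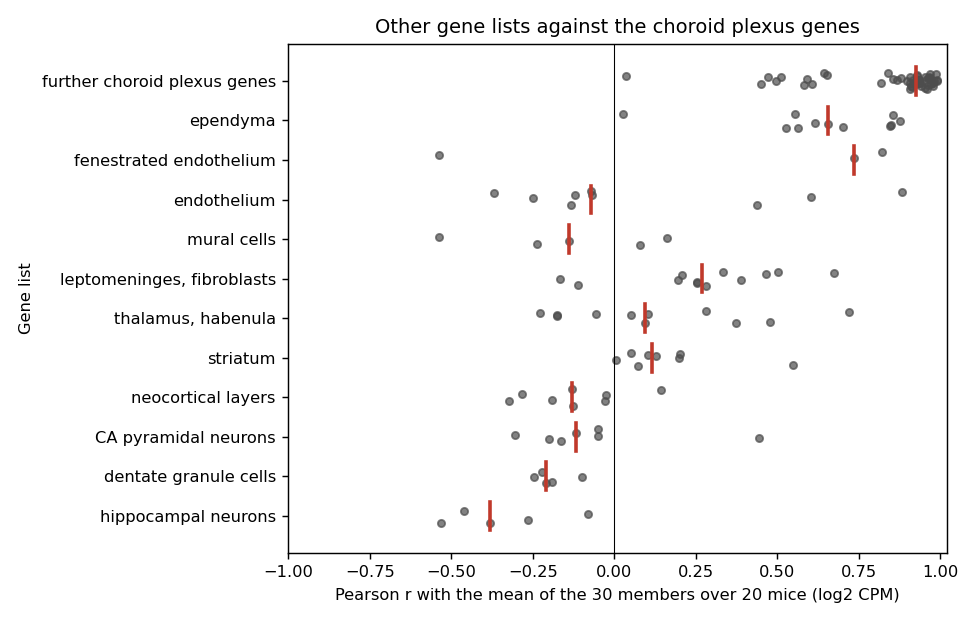
Pearson correlation of single genes with the mean of the 30 choroid plexus genes over 20 mice (log2 CPM), for the gene lists named at the left, with each gene a point and each median a red line. The further choroid plexus genes have a median of 0.927 and ependyma one of 0.657. Fenestrated endothelium has a median of 0.737, but over only 3 genes, of which the lowest lies at -0.538. The medians of the lists of hippocampal cells lie below 0, while single genes of CA pyramidal neurons reach up to 0.443.

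To assess whether MS left a lasting difference in choroid plexus genes, the MS group was compared with the SR group. None of the 30 genes passed an adjusted p value of 0.05 in edgeR's quasi-likelihood test, where 2 of the 18146 genes, or 0.011%, did. At an unadjusted p value under 0.05 the count was 0 of the 30 too, against 6.62% of all genes in the higher direction and 4.92% in the lower. With DESeq2 no choroid plexus gene passed after adjustment, where 119 genes or 0.775% did, and 1 of the 30 genes, Msx1, passed without adjustment, where 6.29% of all genes did in either direction. The log2 fold change was above 0 for all 30 genes, with a median of 0.85, where 50.3% of all genes were above 0 with a median of 0.00. A log2 fold change of at least 0.5 was seen for 1.71% of all genes. The genes are not independent of each other, since a mouse that is high in one is high in all. The MS and SR ranges overlapped for each of the 30 genes, but the share over all genes is not given here, so this is a description only.

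The highest fold changes were those of Clic6, Prlr and Kcnj13, and the lowest those of Slc13a4 and Wfikkn2. Clic6 had a log2 fold change of 1.08 ± 0.65 (SE; adjusted p = 0.549) and Prlr one of 1.03 ± 0.56 (adjusted p = 0.501). Wfikkn2 had 0.37 ± 0.55 (adjusted p = 0.843). The smallest p value was that of Msx1, with 0.72 ± 0.36 (unadjusted p = 0.0574, adjusted p = 0.453). Igf2 had 0.76 ± 0.40 (adjusted p = 0.487), and Igfbp2 had 0.70 ± 0.39 (adjusted p = 0.513). For Ttr the mean was 2307 ± 1406 CPM (SD, n = 8) in the MS group and 1217 ± 1410 CPM (SD, n = 12) in the SR group, and the log2 fold change was 0.92 ± 0.95 (adjusted p = 0.755). Its 95% interval ran from -1.06 to 2.91. On the log scale the difference of Ttr between the group means was 1.93, with an exact two-sided permutation p value of 0.151 over the 20 mice and of 0.2 over the 7 set means. The 95% intervals of all 30 genes included both 0 and 1. The biological coefficient of variation, the square root of the dispersion that edgeR fitted, had a median of 98.0% for the 30 genes. Its median was 11.4% for all genes tested, and the 30 had been chosen for varying between mice.

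**Figure D5:**
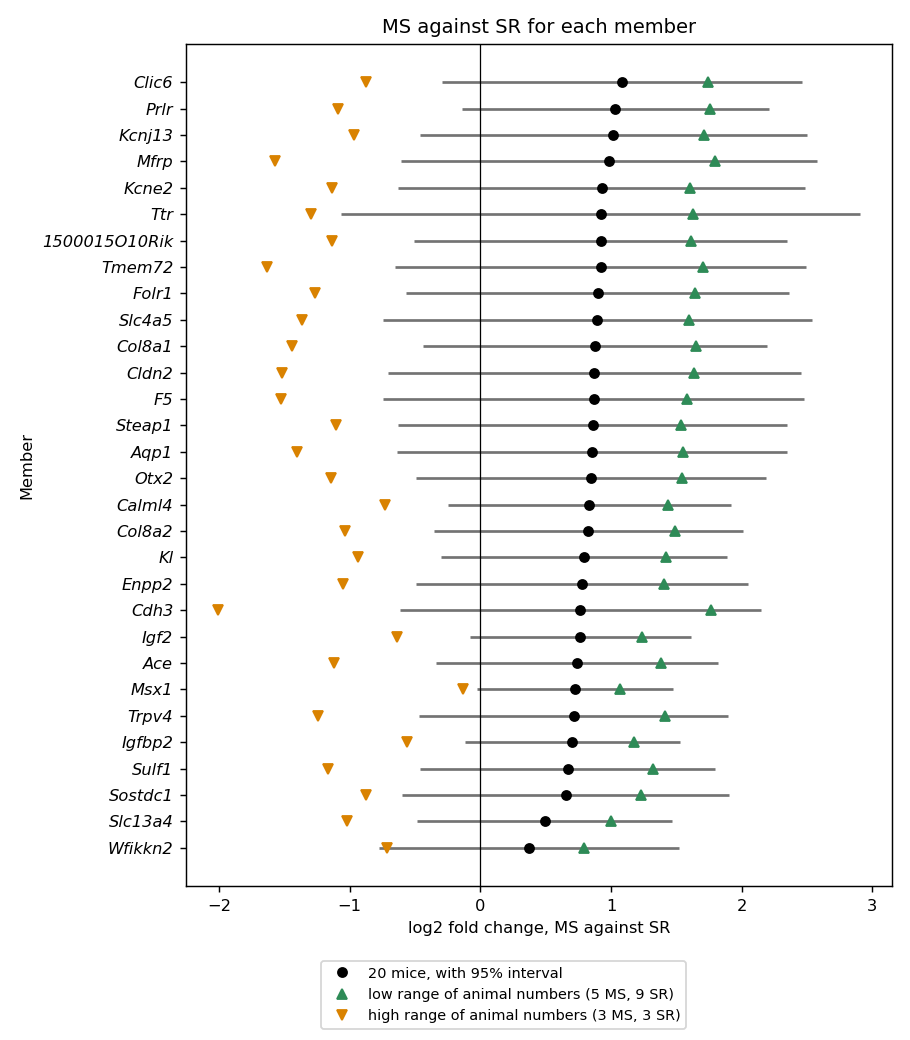
Log2 fold change of MS against SR for the 30 choroid plexus genes, with the value and 95% interval over 20 mice in black, the value within the low range of animal numbers in green and within the high range in orange. All intervals cross 0, all green points lie above 0 and all orange points lie below 0.

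Single mice moved the number of genes under the unadjusted threshold. It was 5 without MS mouse C2, 5 without SR mouse D3, 4 without SR mouse G2 and 2 without MS mouse C1, all in the direction of higher levels in the MS group, and 0 without any of the other mice. The share of all genes under that threshold in either direction was 15.7% without C2, 11.6% without D3, 12.1% without G2 and 10.9% without C1. The 5 of 30 genes without C2 were near that share, but it counts both directions while the 5 were all higher. The share of all genes that were higher is not given for these fits. No choroid plexus gene passed after adjustment in any of these fits. With A2 kept, the median log2 fold change was 0.68 and the count was 0. The log2 fold change of Ttr was 1.95 in limma-voom fitted with sets as random blocks, against 0.92 in edgeR. The estimated correlation between mice of a set in that fit was 0.0466, a single value for all genes tested and not one for Ttr. Without blocks, the difference of Ttr between the group means of log2 CPM was 1.93.

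The animal numbers fell in a low and a high range, and the direction of the fold changes differed between the 2. In the low range, with 5 MS and 9 SR mice, all 30 log2 fold changes were above 0, with a median of 1.55. Without adjustment 21 of the 30 genes had a p value under 0.05 there, against 9.53% of all genes that were higher and 7.1% that were lower. None passed after adjustment, where 1.25% of all genes did, and the smallest adjusted p value was 0.0831 for Igf2, with a log2 fold change of 1.24 ± 0.34. The 30 genes move together, with a median pairwise correlation of 0.967 in the low range, so the 21 are not separate results. The MS mice there came from sets A and B alone, and the SR mice from sets D, E and F. The p values take each mouse as independent. The low range is the one from which A2 was left out. With A2 kept, the median log2 fold change was 1.29, and 5 genes had an unadjusted p value under 0.05, against 9.84% of all genes in that direction.

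In the high range, with 3 MS mice of set C and 3 SR mice of set G, all 30 log2 fold changes were below 0, with a median of -1.13 and the lowest value for Cdh3, -2.01 ± 1.26. The count was 0 both before and after adjustment, where 2.17% of all genes were lower and 2.34% higher before adjustment and 0% passed after it. Since each rearing group has a single set there, set and rearing cannot be told apart in the high range. The difference of the fold change between the ranges had a median of -2.68 on the log2 scale. No gene of the 18146 passed after adjustment, which is 0%, and 11 of the 30 choroid plexus genes had an unadjusted p value under 0.05, against 8.67% of all genes. The smallest of these was 0.0109 for Cdh3, with an adjusted p value of 0.465. The 30 genes move together, so the 11 are not separate results. The difference between the ranges also rests on the single set per rearing group in the high range, and cannot be told apart from a difference between sets. Without SR mouse G2 the median difference was -1.62, and without MS mouse C3 it was -3.45.

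Other lists, which were chosen with earlier results of these data known, were set beside the same shares of all genes. These were 50.3% above 0 and 6.62% higher at an unadjusted p value under 0.05. Of the 48 further choroid plexus genes, 46 had a log2 fold change above 0 and 5 were higher at the unadjusted threshold, among them Cldn3 and Foxj1, which were named after their values were seen. Of the 11 ependyma genes, 10 were above 0 and 3 were higher at the unadjusted threshold (Foxj1, which is in both lists, Tmem212 and Dynlrb2, also named after their values were seen). None of these genes passed after adjustment. The summed level of the ependyma genes lay between 19.2 and 113 CPM in the MS group and between 25.0 and 64.4 CPM in the SR group. The 113 CPM was that of B1, with C1 next in the MS group at 69.8 CPM, and the medians were 63.9 CPM (MS) and 43.8 CPM (SR). For the 30 choroid plexus genes the sum had a median of 5872 CPM in the MS group and 1668 CPM in the SR group. The summed fibroblast and leptomeningeal genes lay between 62.0 and 147 CPM in the MS group and between 55.3 and 143 CPM in the SR group. All 8 striatal genes had a log2 fold change above 0, with a median of 0.47. Their sum lay between 86.6 and 699.6 CPM in the MS group and between 92.2 and 437 CPM in the SR group. The 699.6 CPM was that of B1 alone, with A1 next in the MS group at 167 CPM. In the SR group 437 CPM was that of E2, with E1 next at 167 CPM. The median of the striatal sum was 125 CPM in the MS group and 113 CPM in the SR group. The 5 hippocampal neuron genes were all below 0, with a median of -0.11 and 1 of them at an unadjusted p value under 0.05, where 4.92% of all genes were lower. It was Snap25, named after its values were seen, with -0.11 ± 0.04 (adjusted p = 0.271). Their sum lay between 6442 and 9768 CPM in the MS group and between 7433 and 9127 CPM in the SR group. The part of neighbouring tissue in the fold changes was not tested.

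Some genes share exons with a neighbour, and it is not stated whether counting used the strand of the reads. Kcnj13 lies opposite Gigyf2 and shares 623 bases of exon with it, so that reads within these bases cannot be told apart if strand was not used. Gigyf2 had up to 2402 counts in a library, while Kcnj13 fell to 3 counts in G1. Mfrp shares 1589 bases on the same strand with C1qtnf5, which has no count in any library, and Igf2 shares 3596 bases with the read-through gene Gm49394, which has at most 2. Otx2 shares 154 bases with the antisense gene Otx2os1.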

How the data were processed

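Poly-A RNA of 21 hippocampi was sequenced by the authors, who aligned the reads with STAR (v2.7.3a) to GRCm38 and counted them per Ensembl gene with featureCounts. The deposited values are raw counts per gene and library, not normalized or filtered. The strand setting is not given in the sources used here. Total counts were 17276810 to 30449055 per library. Genes of low count carry the largest counting error.

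Samples were grouped by the treatment in their labels. The choroid plexus genes and the other gene lists were chosen with earlier results of these data known. Gene symbols are those of GENCODE M21, in which 55227 of the genes were found. Replicates were compared, and even the most alike libraries of a group had a chi-square of 3.58 per degree of freedom, above sampling noise. In R 4.3.3, edgeR 4.0.16 was used for TMM normalization, for a filter on low counts (filterByExpr, minimum count 10) and for a robust quasi-likelihood test, and p values were adjusted by Benjamini-Hochberg over 18146 genes. MS was set against SR without covariates. The difference of this effect between ranges of animal numbers was tested as an interaction term. Log2 CPM had a prior count of 2. Standard errors are the log2 fold change over the square root of the F statistic. Named beside the 30 genes were the 10 others most correlated with their mean, at most 3 genes per list, Dsp and Penk. Alternatives were all 21 libraries, DESeq2 1.42.0, its size factors, no filter, counts summed within sets, limma 3.58.1 voom with sets as random blocks, the range of numbers as a term, and each library left out in turn. For co-variation they were all 21 libraries, a prior count of 0.5 and the size factors. The computations were tested on simulated counts.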

Additional observations from a re-analysis of the deposited data

Results flagged for a closer look

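MS mouse C2 lay far below the other 7 MS mice in 18 of the 30 choroid plexus genes on the log2 scale. The gap to the next MS mouse was between 0.532 and 0.718 of the whole range of the group. This measure marks about 1 group in 20 by chance for genes not chosen by their spread. These genes were chosen for varying between mice, so that rate does not hold for them. The 18 genes also move together, so they are 1 pattern and not 18. The measure was applied to the MS group only. SR mice E1, F1, G1 and D1 were low in Ttr too, with 10.4, 17.8, 23.7 and 49.4 CPM. Among the secreted proteins C2 had 23.3 CPM of Ttr, 116 CPM of Enpp2, 0.647 CPM of 1500015O10Rik, 1.94 CPM of Sostdc1 and 0.388 CPM of Wfikkn2. Among the channels and transporters it had 4.40 CPM of Clic6, 0.259 CPM of Slc4a5, 0.690 CPM of Folr1, 0.216 CPM each of Kcnj13 and Kcne2, 2.54 CPM of Slc13a4 and 0 CPM of Steap1. For Otx2 it had 0.604 CPM, and among the junction and matrix genes 0.259 CPM of Cldn2, 0.561 CPM each of Calml4 and Col8a1, 0.776 CPM of Col8a2 and 0.0431 CPM of Cdh3. The total count of C2 was 24052716, the highest of the 8 MS mice. Why C2 was low was not tested. C2 also had the lowest sum of the 11 ependyma genes, 19.2 CPM, and the highest sum of the 5 hippocampal neuron genes, 9768 CPM.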

How the results depend on the processing

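No paired analysis was possible because the labels give the groups no shared replicate numbers. No choroid plexus gene passed after adjustment under any of the alternatives run, each of the 812 recomputed fold changes stayed above 0, and the smallest adjusted p value was 0.229, for Msx1 without C2. The 812 come from refits of the 30 genes on nearly the same mice and from the permutation differences of Ttr. Fits within a range of animal numbers are not among them, and in the high range all 30 fold changes were below 0. The number of all genes called, 2, was 1 with all 21 libraries, 119 with DESeq2, 1 without the filter, 0 with counts summed within sets and 0 in limma-voom with the set as a block, and it ran from 0 to 109 with single libraries left out (109 without C2 and 109 without C3). The number of choroid plexus genes higher at an unadjusted p value under 0.05 was 1 with DESeq2 (6.29% of all genes in either direction), 1 in limma-voom with the block (9.97%), and 0 to 5 with single libraries left out (up to 15.7%). Their median log2 fold change lay between 0.68 and 1.12 under the alternatives and between 0.71 and 1.14 with single libraries left out. For the difference between ranges, whose alternatives were chosen after the data had been seen, as was keeping A2 in the low range, 0 genes passed throughout and the median lay between -3.45 and -1.62 with single libraries left out. The median pairwise correlation was 0.944 with all 21 libraries, 0.955 with a prior count of 0.5 and 0.961 with size factors. Slc4a5, Kcne2, Kcnj13, Steap1 and Cdh3 had few counts in the low mice, which limits their ratios.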

Other observations

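In each of the 4 SR sets the mouse with the lowest animal number was the one below the gap in Ttr, with 49.4 CPM in D1, 10.4 in E1, 17.8 in F1 and 23.7 in G1. In that mouse 29, 28, 30 and 30 of the 30 choroid plexus genes were at the lowest level of the set. In MS set C the mouse below the gap was the middle one by number, C2, where all 30 genes were lowest, and in set A the middle one, A2, was the library that was left out. Set B had no such mouse, and there the highest Ttr level was 1.08 times the lowest, against 154.9 times in set G. This order was noticed after the values were seen, it was not tested, and the labels do not say in which order the mice were dissected.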
